A study of Mus musculus with 20 samples.

Results

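The transcripts of 8 genes of cholesterol synthesis and its control were followed in the plantaris muscle of mice, chosen by name from the 19505 genes with a symbol on the arrays. They are *Srebf2* and *Insig1*, which control the pathway, and *Hmgcs1*, *Idi1*, *Fdft1*, *Sqle*, *Lss* and *Dhcr7*, which code for its enzymes. Each was read by 1 probe set. None of the 8 is itself a receptor or transporter for cholesterol uptake, so the uptake genes are described as a list of their own. The mice were female *Pax7*-DTA animals (*Pax7*CreER/+; *Rosa26*DTA/+) aged 5 months, in which tamoxifen switches on diphtheria toxin in cells that express *Pax7*, the marker of muscle stem (satellite) cells. SC- mice had received tamoxifen and SC+ mice vehicle, and every mouse carried both alleles. Mechanical overload (MOV), in which synergist muscles are removed so that the plantaris bears more load, lasted 1, 3, 5 or 7 days, and sham-operated mice served as the reference in each arm. There were 2 arrays in each of the 10 groups, each made from RNA pooled over several mice, so p-values measure the spread between pools. Since no mice kept their satellite cells under tamoxifen, the drug and the loss of these cells cannot be told apart.

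Animal cells make cholesterol from acetyl units by the mevalonate pathway. *Hmgcs1* codes for the synthase that makes HMG-CoA, *Idi1* for the isomerase that readies the isoprenoid building blocks, *Fdft1* for squalene synthase, which commits these blocks to sterols, and *Sqle* for the oxygenase that opens the sterol arm. *Lss* closes the ring to lanosterol, and *Dhcr7* carries out the last reduction to cholesterol. When membranes run short of sterol, SCAP carries SREBP2, the product of *Srebf2*, to the Golgi to be cleaved, and the released factor turns on the enzymes and *Insig1*. INSIG1 holds the SCAP-SREBP complex back when sterol is plentiful, so the genes are often read as 1 regulated set. In muscle, cholesterol is a part of the surface membrane and its tubules, and macrophages, which enter overloaded muscle, also take up and export it.

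RefSeq promoters (250 bases before to 50 after the start, GRCm38.p6) were matched for 6 of the 8 genes. Motifs of 3 kinds were searched on both strands. TCACCCCA is the core of the classical sterol element that SREBP binds, CCAAT is the box of NF-Y, and GGGCGG is the GC box of SP1, and SREBP is known to act together with NF-Y or SP1. No match of 1 motif overlapped a match of another. The sterol element core was found in 2 of the 6 genes, *Srebf2* and *Hmgcs1*, and in 1.56% of all 32851 promoters in the table. CCAAT was found in 6 of 6 genes, against 37.4% of all promoters, and GGGCGG in 6 of 6, against 35.7%. A gene was counted if any of its promoters had a match, while the shares are of single promoters, so they are unlike measures. *Dhcr7* has 3 promoters in the table and had CCAAT in 1 of them, and its promoter 2 had no match of any motif. The promoters of *Srebf2* (chr15:82147019-82147318) and *Hmgcs1* (chr13:119690101-119690400) are shown because they hold the sterol element core, and that of *Insig1* (chr5:28071162-28071461) because the gene rose early in SC+ muscle and its window holds no such core. All 3 lie on the plus strand, and capitals mark the motifs on either strand.
Srebf2 promoter: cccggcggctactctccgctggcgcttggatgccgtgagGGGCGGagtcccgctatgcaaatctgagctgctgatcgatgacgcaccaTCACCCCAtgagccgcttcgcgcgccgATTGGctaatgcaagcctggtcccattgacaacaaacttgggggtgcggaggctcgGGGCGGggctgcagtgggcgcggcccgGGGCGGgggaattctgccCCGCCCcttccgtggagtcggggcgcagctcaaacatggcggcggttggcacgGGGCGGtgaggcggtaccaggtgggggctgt
Hmgcs1 promoter: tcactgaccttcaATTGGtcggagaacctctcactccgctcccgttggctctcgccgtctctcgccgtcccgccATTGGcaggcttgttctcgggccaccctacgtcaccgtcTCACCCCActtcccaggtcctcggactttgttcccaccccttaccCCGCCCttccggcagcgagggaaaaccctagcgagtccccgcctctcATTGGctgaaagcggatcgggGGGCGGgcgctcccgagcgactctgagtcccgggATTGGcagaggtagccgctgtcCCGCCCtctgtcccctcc
Insig1 promoter: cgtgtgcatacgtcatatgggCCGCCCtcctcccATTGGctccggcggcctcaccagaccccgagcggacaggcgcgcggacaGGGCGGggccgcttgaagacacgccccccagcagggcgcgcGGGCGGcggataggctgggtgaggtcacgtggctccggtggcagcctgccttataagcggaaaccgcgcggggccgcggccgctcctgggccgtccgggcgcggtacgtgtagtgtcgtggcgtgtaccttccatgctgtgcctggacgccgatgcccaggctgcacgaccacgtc
A match in these windows is a description of the letters and not a measured site.

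**Figure D1:**
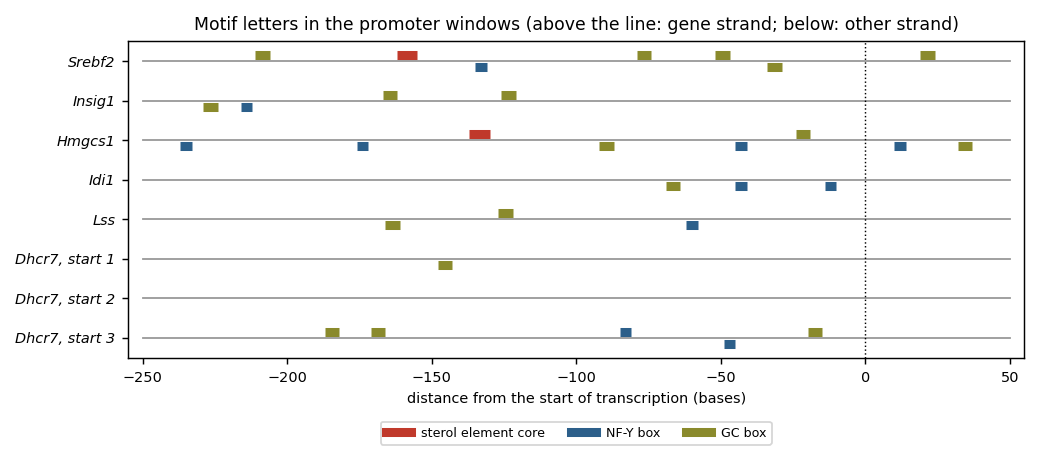
Motif matches in the promoter windows of 6 of the 8 genes, by distance in bases from the start of transcription, with matches on the gene's strand above each line and on the other strand below. The sterol element core lies in the windows of *Srebf2* and *Hmgcs1* alone among these, while every gene has a CCAAT and a GC box.

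The values are log2 levels after robust multi-array averaging, and levels are compared within a gene and not between genes. A mean level under 6 is called dim, because arrays then read mostly background, and *Sqle* was the 1 dim gene of the 8 (mean 5.89 over 20 arrays). Of the SC+ sham arrays, replicate 2 stood apart from replicate 1 in markers of other cells. Its mean log2 level over 13 macrophage markers was 9.55, against 7.21 in replicate 1, and over 9 fibroblast markers 13.76 against 11.27. SC- MOV day 1 replicate 2 had a mean fibroblast marker level of 13.76, against 10.72 in replicate 1. Fitted differences are given with the result of leaving out each array in turn wherever that ends a call. All MOV days of an arm share its 2 sham arrays, so the days are not independent comparisons.

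Markers of other cells moved with MOV in both arms. The 13 macrophage markers averaged between 9.28 and 12.67 on SC- MOV arrays and 7.98 to 8.05 on SC- sham arrays, and 9.57 to 12.34 on SC+ MOV arrays and 7.21 to 9.55 on SC+ sham arrays. At day 3, 13 of 13 rose in SC- muscle and 12 of 13 in SC+ muscle (adjusted p under 0.05, limma). Of all genes 21.3% and 27.9% passed at days 3 and 5 in SC- muscle, and 21.5% and 19.2% in SC+ muscle. The 9 proliferation markers all rose at days 3 and 5 in both arms, and the 14 markers of the adult fibre had a mean level of 18.01 to 18.93 on SC- MOV arrays, against 19.35 to 19.37 on SC- sham arrays, and of 17.93 to 18.94 on SC+ MOV arrays, against 19.23 to 19.42 on SC+ sham arrays. Some fibre markers, such as *Acta1* (19.91 to 19.93 over the 20 arrays), lay at the top of the scale of 19.93, where a change can be hidden. Over all time points, 8 of 8 markers of satellite cells and myoblasts were lower in SC- than in SC+ muscle at an unadjusted p under 0.05. Of all genes 8.71% differed in that comparison. *Pax7* itself, like *Myf5*, *Myod1* and *Chrdl2*, was dim, though. These are whole muscles, in which more cells of a type and more RNA per cell cannot be told apart, and the part of these cells in the changes of the 8 genes was not tested.

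The 8 genes did not move as 1 block under MOV. *Srebf2* rose and *Fdft1* fell at every day in both arms, *Sqle* rose at days 3, 5 and 7 in SC- muscle and at day 5 in SC+ muscle, *Hmgcs1* rose at day 7 in SC- muscle and *Insig1* at days 1 and 3 in SC+ muscle, and *Idi1*, *Lss* and *Dhcr7* did not pass the test on any day. In SC- muscle 2, 3, 3 and 4 of the 8 genes passed at days 1, 3, 5 and 7 (limma, adjusted p under 0.05 over all genes), where 14.4%, 21.3%, 27.9% and 28.6% of all genes did. In SC+ muscle 3, 3, 3 and 2 passed, where 17.7%, 21.5%, 19.2% and 18.1% of all genes did. With 1 array left out these shares of all genes ran from 7.04% to 12.0%, 12.9% to 18.6%, 22.2% to 24.0% and 20.6% to 24.4% in SC- muscle, and from 10.3% to 17.8%, 12.6% to 22.1%, 8.64% to 20.2% and 8.10% to 19.1% in SC+ muscle. They moved by over 1.5 times without replicate 1 of SC- MOV day 1 (7.04%) or day 3 (12.9%), replicate 1 of SC- sham at day 1 (9.48%), replicate 1 of SC+ MOV day 1 (10.3%) or day 7 (12.0%), replicate 2 of SC+ MOV day 3 (12.6%), day 5 (8.64%) or day 7 (8.10%), and replicate 1 of SC+ sham on every day (11.2%, 14.0%, 9.98% and 8.92%). The median log2 difference of the 8 genes from sham was -0.07, 0.47, 0.52 and 0.51 at days 1, 3, 5 and 7 in SC- muscle, against -0.01, -0.06, -0.10 and -0.09 over all genes. In SC+ muscle it was 0.19, 0.44, 0.51 and 0.41, against -0.03, -0.06, -0.10 and -0.07 over all genes.

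**Figure D2:**
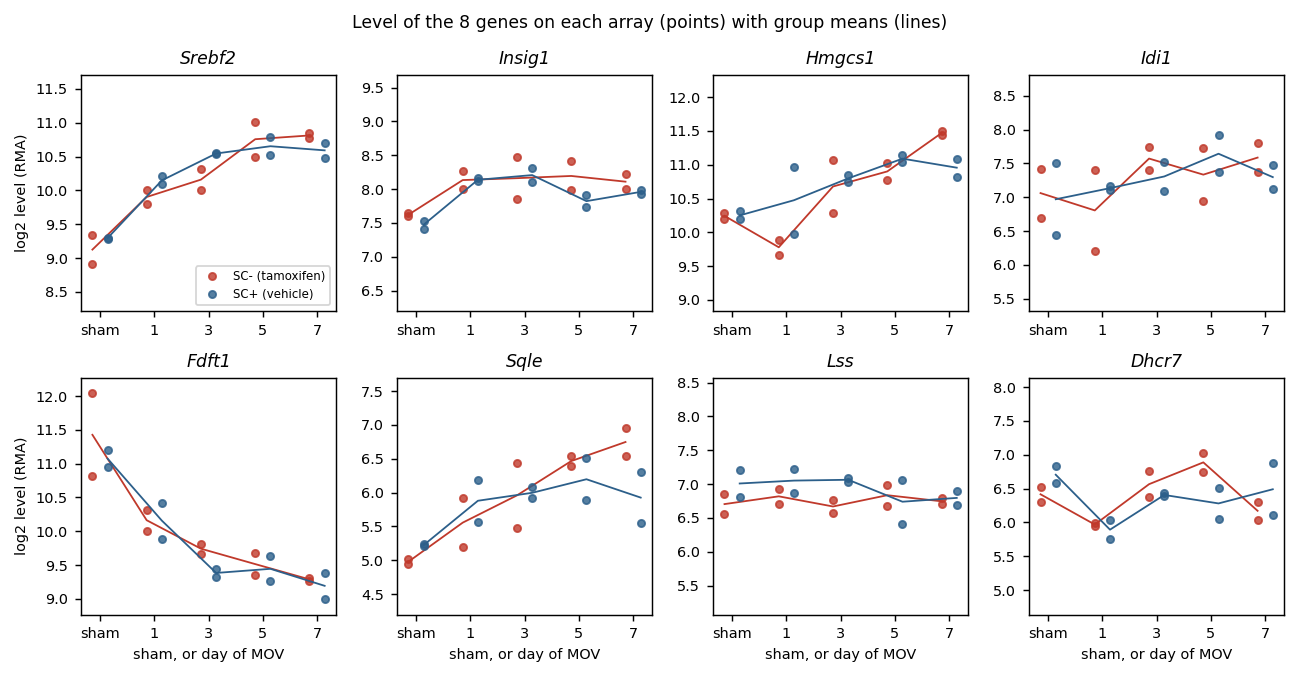
Log2 level of each gene on each of the 20 arrays (points) with group means (lines), for sham and days 1, 3, 5 and 7 of MOV, SC- in red and left of SC+ in blue; every panel spans the same number of log2 units. All MOV points of *Srebf2* lie above, and all of *Fdft1* below, the sham points of their arm, while the points of *Lss* stay between 6.42 and 7.23.

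*Srebf2*, the gene of the master regulator of sterol synthesis, rose the most evenly. In SC- muscle its log2 level was 8.91 and 9.34 in sham, 9.80 and 10.004 at day 1, 10.01 and 10.31 at day 3, 10.50 and 11.02 at day 5, and 10.85 and 10.78 at day 7. In SC+ muscle it was 9.29 and 9.30 in sham, 10.21 and 10.09 at day 1, 10.56 and 10.54 at day 3, 10.52 and 10.79 at day 5, and 10.70 and 10.48 at day 7. Every MOV array thus lay above both sham arrays of its arm. The log2 differences from sham were 0.78, 1.03, 1.63 and 1.69 (SE 0.23) at days 1, 3, 5 and 7 in SC- muscle (limma, adjusted p = 0.0310, 0.00303, 3.03e-05 and 1.95e-05), the last a 3.22-fold rise. In SC+ muscle they were 0.85, 1.25, 1.36 and 1.30 (SE 0.21; limma, adjusted p = 0.0158, 0.00122, 0.00117 and 0.00160), so most of the rise was already present at day 3. Neighbouring MOV days in SC+ muscle did not differ at an adjusted p under 0.05 for any of the 8 genes, where 7.16%, 0.246% and 0% of all genes did for day 3 against day 1, day 5 against day 3 and day 7 against day 5. Of the 8 genes 1, 0 and 0 had an unadjusted p under 0.05 in these comparisons. Of all 19505 genes, 4109, 2116 and 1112 did. The calls at days 5 and 7 in SC- muscle and at days 3, 5 and 7 in SC+ muscle stayed with any 1 array left out. At day 1 the call ended without SC- sham replicate 1 (limma, adjusted p = 0.246) or either SC- MOV day 1 array (0.0795 and 0.157), and in SC+ muscle without sham replicate 1 (0.0671) or either day 1 array (0.0919 and 0.0511). At day 3 in SC- muscle it ended without SC- sham replicate 1 (0.0526).

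*Insig1*, whose product retains the SCAP-SREBP complex in the endoplasmic reticulum and which is itself a target of SREBP2, rose by less. Its log2 level in SC- muscle was 7.64 and 7.60 in sham, 7.999 and 8.27 at day 1, 8.47 and 7.85 at day 3, 7.98 and 8.41 at day 5, and 7.996 and 8.22 at day 7. In SC+ muscle it was 7.41 and 7.53 in sham, 8.16 and 8.11 at day 1, 8.10 and 8.31 at day 3, 7.74 and 7.91 at day 5, and 7.92 and 7.99 at day 7. All MOV arrays lay above the sham arrays of their arm. The log2 differences from sham were 0.51, 0.54, 0.57 and 0.49 (SE 0.24) in SC- muscle, none past the threshold (limma, adjusted p between 0.0837 and 0.182). In SC+ muscle they were 0.66 and 0.73 at days 1 and 3 (SE 0.21; limma, adjusted p = 0.0463 and 0.0246) and 0.35 and 0.49 at days 5 and 7 (adjusted p = 0.290 and 0.1396). In fits with 1 array left out the log2 difference ran from 0.60 to 0.72 at day 1 and from 0.63 to 0.84 at day 3. Neither call stayed with each array left out in turn. That at day 1 ended with any 1 of the 4 arrays left out (adjusted p between 0.0820 and 0.182) or with all 20 arrays fitted together (0.0610), and that at day 3 without SC+ sham replicate 1 (0.125) or either day 3 array (0.0545 and 0.171). The rise was not shown to differ between arms, with response differences of -0.15, -0.19, 0.22 and 0.00 at days 1, 3, 5 and 7 and 95% intervals of -0.86 to 0.55, -0.90 to 0.51, -0.48 to 0.93 and -0.70 to 0.71.

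*Hmgcs1*, the enzyme gene at the entry of the pathway, was the only enzyme of the mevalonate arm that passed on any day. In SC- muscle its log2 level was 10.19 and 10.29 in sham, 9.89 and 9.67 at day 1, 11.07 and 10.29 at day 3, 11.03 and 10.77 at day 5, and 11.44 and 11.49 at day 7. In SC+ muscle it was 10.19 and 10.31 in sham, 10.97 and 9.98 at day 1, 10.85 and 10.74 at day 3, 11.04 and 11.14 at day 5, and 10.82 and 11.09 at day 7. The day 1 arrays lay below sham in SC- muscle and on both sides of it in SC+ muscle, and from day 5 on all MOV arrays lay above sham in both arms. The rise at day 7 in SC- muscle was 1.22 on the log2 scale (SE 0.29), or 2.34-fold (limma, adjusted p = 0.00312), and stayed with any 1 array left out. The other log2 differences were -0.46, 0.43 and 0.66 at days 1, 3 and 5 in SC- muscle and 0.22, 0.55, 0.84 and 0.71 at days 1, 3, 5 and 7 in SC+ muscle, with adjusted p between 0.0666 and 0.676.

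*Idi1*, the isopentenyl diphosphate isomerase gene, had wide spread between pools. Its log2 level ranged from 6.21 to 7.80 on SC- MOV arrays, against 6.70 and 7.43 on the SC- sham arrays, and from 7.09 to 7.92 on SC+ MOV arrays, against 7.50 and 6.44 on the SC+ sham arrays. MOV arrays overlapped sham at every day in both arms. The log2 differences from sham were -0.26, 0.51, 0.27 and 0.52 in SC- muscle (SE 0.40) and 0.16, 0.34, 0.67 and 0.33 in SC+ muscle (SE 0.34), with limma adjusted p of 0.201 or more. Without SC+ sham replicate 1 the SC+ difference at day 5 was 1.20 (limma, adjusted p = 0.0336), so this gene's values rest on which sham array is used.

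*Fdft1*, squalene synthase, went the other way from *Srebf2* and was the 1 gene of the 8 that fell. Its log2 level in SC- muscle was 10.81 and 12.04 in sham, 10.01 and 10.32 at day 1, 9.82 and 9.67 at day 3, 9.36 and 9.67 at day 5, and 9.31 and 9.27 at day 7. In SC+ muscle it was 11.20 and 10.95 in sham, 10.42 and 9.89 at day 1, 9.44 and 9.33 at day 3, 9.26 and 9.63 at day 5, and 9.39 and 9.001 at day 7. Every MOV array lay below both sham arrays of its arm. The log2 differences from sham were -1.26, -1.68, -1.91 and -2.14 (SE 0.32) at days 1, 3, 5 and 7 in SC- muscle (limma, adjusted p = 0.0101, 0.000611, 0.000122 and 3.65e-05), and -0.92, -1.69, -1.63 and -1.88 (SE 0.26) in SC+ muscle (adjusted p = 0.0286, 0.000620, 0.00124 and 0.000611). At day 7 the level was thus 0.227 times that of sham in SC- muscle and 0.272 times in SC+ muscle. The calls at days 3, 5 and 7 stayed with any 1 array left out in both arms. Without SC- sham replicate 2 the SC- differences at days 1 and 3 were -0.65 (limma, adjusted p = 0.194) and -1.07 (0.0180). The day 1 calls also ended without SC- MOV day 1 replicate 1 (0.1003), and in SC+ muscle without sham replicate 1 (0.14003) or day 1 replicate 2 (0.1995), or with all 20 arrays fitted together (0.0507).

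*Sqle*, the squalene epoxidase gene and a rate-limiting step of the sterol arm, passed on 3 days in SC- muscle and on 1 in SC+ muscle. Its log2 level in SC- muscle was 4.94 and 5.02 in sham, 5.92 and 5.19 at day 1, 6.44 and 5.48 at day 3, 6.54 and 6.39 at day 5, and 6.96 and 6.54 at day 7. In SC+ muscle it was 5.24 and 5.21 in sham, 5.57 and 6.19 at day 1, 6.08 and 5.92 at day 3, 5.89 and 6.505 at day 5, and 5.55 and 6.30 at day 7. All MOV arrays lay above sham, though the sham levels are within the dim range, where a fold change reads too small. The log2 differences were 0.58, 0.98, 1.49 and 1.77 (SE 0.34) in SC- muscle (limma, adjusted p = 0.323, 0.0491, 0.00259 and 0.000523), the last a 3.41-fold rise, and 0.66, 0.77, 0.97 and 0.70 (SE 0.31) in SC+ muscle, where day 5 alone passed (adjusted p = 0.0475, against 0.187, 0.107 and 0.154 at days 1, 3 and 7). The SC- calls at days 5 and 7 stayed with any 1 array left out. The day 3 call ended without SC- MOV day 3 replicate 1, where the difference was 0.50 (limma, adjusted p = 0.490), or either SC- sham array (0.167 and 0.117), and with the replicate number as a block (0.0568). The SC+ day 5 call ended without day 5 replicate 2 (0.311) or either SC+ sham array (0.135 and 0.105), or with all 20 arrays fitted together (0.0544).

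*Lss* and *Dhcr7*, which act after *Sqle*, did not pass the test on any day. *Lss*, lanosterol synthase, ranged from 6.57 to 6.99 on SC- MOV arrays and 6.56 and 6.85 on SC- sham arrays, and from 6.42 to 7.23 on SC+ MOV arrays and 6.80 and 7.21 on SC+ sham arrays. Its log2 differences from sham lay between -0.04 and 0.13 in SC- muscle (SE 0.25) and between -0.27 and 0.06 in SC+ muscle (SE 0.27), and the 95% interval at day 7 was -0.49 to 0.57 in SC- muscle and -0.80 to 0.37 in SC+ muscle. *Dhcr7*, 7-dehydrocholesterol reductase, had log2 levels in SC- muscle of 6.31 and 6.52 in sham, 5.94 and 5.99 at day 1, 6.37 and 6.76 at day 3, 6.75 and 7.02 at day 5, and 6.30 and 6.04 at day 7. In SC+ muscle they were 6.83 and 6.58 in sham, 6.03 and 5.75 at day 1, 6.38 and 6.43 at day 3, 6.05 and 6.51 at day 5, and 6.87 and 6.10 at day 7. Both day 1 arrays lay below sham in both arms, with log2 differences of -0.45 in SC- muscle (limma, adjusted p = 0.320) and -0.81 in SC+ muscle (adjusted p = 0.0697, and 0.0389 when all 20 arrays were fitted together).

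The other genes of the pathway were counted in lists, beside the same shares of all genes (14.4%, 21.3%, 27.9% and 28.6% in SC- muscle and 17.7%, 21.5%, 19.2% and 18.1% in SC+ muscle at days 1, 3, 5 and 7), and differences between lists were not tested. Of 8 listed genes of the mevalonate arm, 6 were measured, and listed genes beyond those measured were not analysed here. *Mvk* and *Pmvk*, which phosphorylate mevalonate, *Mvd*, which decarboxylates it, *Fdps* and *Ggps1*, which build farnesyl and geranylgeranyl chains, and *Idi2*, a second isomerase, passed on 0 of 4 days in each arm at an adjusted p under 0.05 (limma). At an unadjusted p under 0.05, 1, 1, 0 and 0 of the 6 passed at days 1, 3, 5 and 7 in SC- muscle and 0 on each day in SC+ muscle. Of all 19505 genes, 4981, 6156, 7185 and 7278 passed that unadjusted threshold in SC- muscle and 5746, 6109, 6106 and 5822 in SC+ muscle. *Mvk*, *Pmvk* and *Idi2* are dim.

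Of 9 listed genes of the sterol arm, 7 were measured. In SC- muscle 2, 2, 3 and 3 rose at days 1, 3, 5 and 7 and none fell. In SC+ muscle 1, 3, 4 and 2 rose, and 1 fell, at day 3. *Cyp51*, the demethylase that acts on lanosterol, had log2 levels of 9.08 and 8.73 at day 7, against 6.53 and 7.12 in sham, in SC- muscle, and of 8.67 and 8.33 at day 7, against 6.98 and 7.49 in sham, in SC+ muscle. Its log2 differences were 1.01, 1.99, 2.17 and 2.08 at days 1, 3, 5 and 7 in SC- muscle, all past the threshold, and 0.53, 1.39, 1.52 and 1.26 in SC+ muscle, past it from day 3. *Msmo1*, the C4 demethylase gene and dim here, rose by 0.96, 0.87 and 0.89 at days 1, 5 and 7 in SC- muscle and by 0.99, 1.29 and 0.83 at days 1, 3 and 5 in SC+ muscle. *Ebp*, a sterol isomerase gene, rose by 1.14, 1.38 and 1.48 at days 3, 5 and 7 in SC- muscle and by 1.12 at day 5 in SC+ muscle. *Nsdhl*, which works beside *Msmo1*, rose by 1.01, 1.15 and 0.81 at days 3, 5 and 7 in SC+ muscle and had differences of 0.16, 0.56 and 0.29 in SC- muscle. *Hsd17b7*, of the same complex, fell by 1.12 at day 3 in SC+ muscle, while *Lbr* and *Sc5d* did not pass in either arm.

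Of 10 listed genes of uptake and intracellular transport, 7 were measured. At days 1, 3, 5 and 7 the number that rose was 1, 4, 5 and 5 in each arm, with 1 that fell at day 1. *Npc1*, which moves cholesterol out of lysosomes, stood at 11.20 and 9.85 at day 1 against 8.02 and 9.14 in sham in SC- muscle, and at 10.11 and 10.33 against 8.203 and 8.70 in SC+ muscle, rises of 1.95 and 1.77 on the log2 scale, and at day 3 it lay within the range of the sham arrays in both arms. *Mylip*, a ubiquitin ligase that the oxysterol receptors turn on, fell at day 1 by 1.90 in SC- muscle and by 2.25 in SC+ muscle and did not pass later. In SC+ muscle day 3 itself differed from day 1 for *Npc1* (-1.57, limma adjusted p = 0.00264) and *Mylip* (1.77, adjusted p = 0.0259). These calls did not both stay with each array left out in turn. From day 3 on *Lipa*, the lysosomal lipase that frees cholesterol from its esters, rose by 3.57, 4.14 and 3.92 in SC- muscle and by 3.23, 2.93 and 2.94 in SC+ muscle at days 3, 5 and 7. Over the same days *Npc2*, the partner of *Npc1*, rose by 2.23, 2.37 and 2.73 in SC- and 1.68 to 1.93 in SC+ muscle, and *Tmem97*, a regulator of NPC1 and a sterol-responsive gene, by 1.25, 1.66 and 2.19 in SC- and 1.61, 1.76 and 1.27 in SC+ muscle. *Stard4*, a sterol carrier, rose by 0.64, 1.13 and 1.17 in SC- and 1.30, 1.35 and 0.92 in SC+ muscle, and *Scarb1*, the HDL receptor, rose at days 5 and 7 by 0.94 and 0.80 in SC- and 0.90 and 1.02 in SC+ muscle. *Lipa* had 7.48 on SC+ sham replicate 2, the array rich in macrophage markers, and 5.36 on replicate 1. With replicate 1 left out its SC+ differences at days 5 and 7 were 1.87 and 1.89 and kept their calls, and with replicate 2 left out it was also called at day 1, at 2.20 (limma, adjusted p = 0.00169). *Npc2* was called at day 1 in SC+ muscle without MOV day 1 replicate 2, at 1.42 (0.0301).

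Of 9 listed regulators, 5 were measured. In SC- muscle 2, 1, 2 and 3 fell at days 1, 3, 5 and 7, and 1 rose at each of days 5 and 7. In SC+ muscle 1, 2, 1 and 1 fell, and 1 rose at each of days 5 and 7. *Rnf139*, a sterol-responsive ubiquitin ligase, fell by 1.25, 1.07, 1.08 and 1.05 in SC- muscle, and in SC+ muscle at day 3 alone, by 0.79. *Nr1h3*, the oxysterol receptor LXR alpha, fell by 1.17, 0.79, 1.33 and 1.01 in SC+ muscle and at day 7, by 0.91, in SC- muscle. *Insig2*, the second retention protein, fell by 1.07, 0.89 and 1.39 at days 1, 5 and 7 in SC- muscle and had differences of -0.20, -0.25, -0.27 and 0.23 in SC+ muscle. *Mbtps1*, the first protease that cleaves SREBP, rose by 1.06 at day 7 in SC- muscle and by 1.06 and 1.05 at days 5 and 7 in SC+ muscle, and *Scap* rose by 1.07 at day 5 in SC- muscle.

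**Figure D3:**
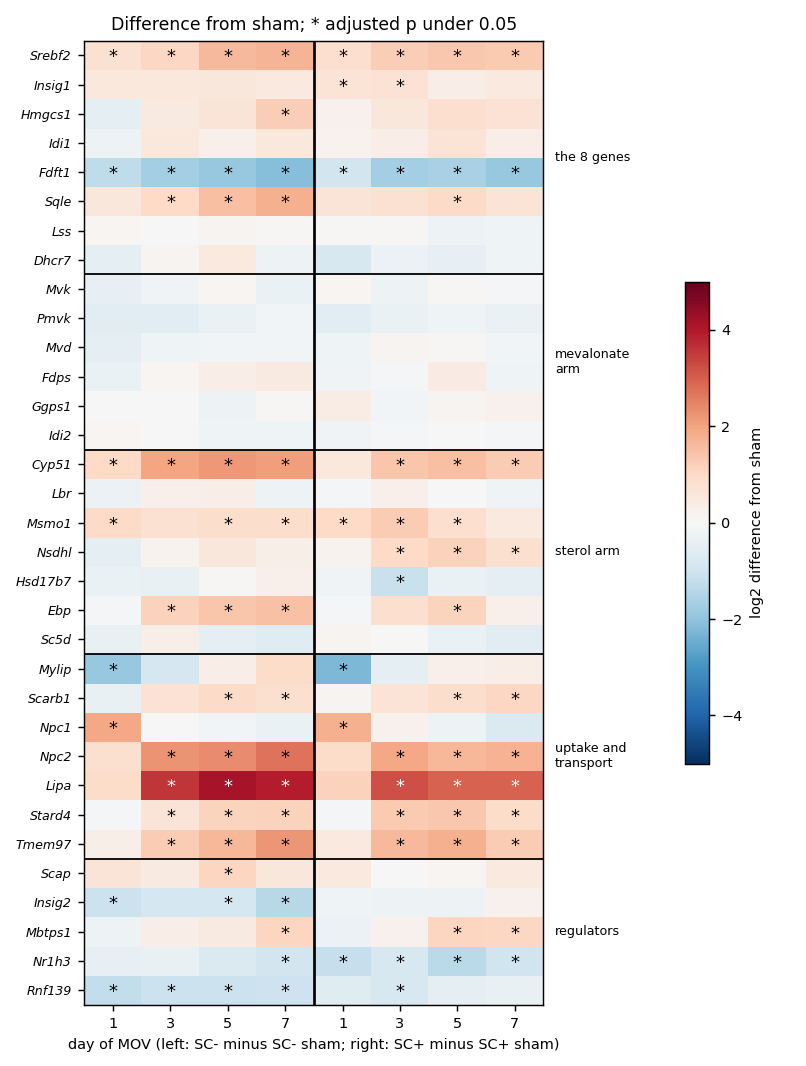
Log2 difference from sham of the 8 genes and the 25 measured genes of 4 further lists (rows) at days 1, 3, 5 and 7 of MOV, for SC- muscle (left) and SC+ muscle (right); a star marks an adjusted p under 0.05. The list of other mevalonate arm genes has no star, *Lipa* has the darkest red from day 3, and *Mylip* and *Npc1* are marked at day 1 alone.

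Many of these calls did not stay with each array left out in turn. Of the calls among the 25 genes, 1 of 6, 4 of 7, 6 of 11 and 8 of 12 at days 1, 3, 5 and 7 in SC- muscle stayed with any 1 array left out, and 2 of 4, 6 of 10, 4 of 11 and 2 of 9 in SC+ muscle. In SC- muscle the calls of *Cyp51*, *Msmo1*, *Mylip*, *Npc1* and *Insig2* at day 1 ended without SC- MOV day 1 replicate 1 (limma, adjusted p between 0.0638 and 0.289), among them *Mylip* at -1.17 and *Npc1* at 1.27. All of these but *Mylip* also ended without SC- sham replicate 1 (adjusted p between 0.0511 and 0.270), and *Mylip* ended without SC- sham replicate 2, at -1.06 (0.269). *Cyp51* at day 1 ended without SC- MOV day 1 replicate 2 too (0.0710). At day 3 in SC- muscle *Ebp*, *Stard4* and *Tmem97* lost their calls without MOV replicate 1 (0.0834 to 0.381, *Ebp* at 0.69), *Stard4* without MOV replicate 2 (0.0847), and *Ebp* and *Stard4* without either sham array (0.0728 to 0.183). At day 5 in SC- muscle *Msmo1*, *Ebp*, *Scarb1*, *Scap* and *Insig2* ended without sham replicate 1 (0.0711 to 0.309, with *Msmo1* at 0.57, *Scarb1* at 0.62 and *Insig2* at -0.58), all of them but *Ebp* without MOV replicate 2 (0.0619 to 0.223), and *Ebp* and *Insig2* without MOV replicate 1 (0.0679 and 0.0700). At day 7 in SC- muscle *Msmo1*, *Ebp*, *Scarb1* and *Nr1h3* ended without MOV replicate 1 (0.0740 to 0.152), *Msmo1*, *Scarb1* and *Nr1h3* without MOV replicate 2 (0.0567 to 0.203), *Msmo1* and *Scarb1* without sham replicate 1, at 0.59 and 0.48 (0.250 and 0.340), and *Nr1h3* without sham replicate 2, at -0.56 (0.318).

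In SC+ muscle, *Msmo1* and *Nr1h3* lost their day 1 calls without MOV replicate 1 (limma, adjusted p = 0.0534 to 0.202, *Msmo1* at 0.65) or sham replicate 2 (0.0521 and 0.1003). At day 3, *Cyp51*, *Nsdhl* and *Rnf139* ended without MOV replicate 2 or sham replicate 1 (0.0534 to 0.173), *Nsdhl* also without MOV replicate 1 (0.0767), and *Nr1h3* without either MOV array or sham replicate 2 (0.0817 to 0.263). At day 5, *Cyp51*, *Msmo1*, *Nsdhl*, *Ebp*, *Scarb1*, *Npc2* and *Mbtps1* ended without MOV replicate 2 (0.0534 to 0.280). *Msmo1*, *Nsdhl*, *Ebp* and *Scarb1* ended without sham replicate 1 as well (0.0539 to 0.191, *Ebp* at 0.71), *Msmo1* and *Scarb1* without MOV replicate 1 (0.0615 and 0.0648), and *Msmo1* without sham replicate 2 (0.174). At day 7, *Cyp51*, *Nsdhl*, *Scarb1* and *Stard4* ended without MOV replicate 1 (0.0606 to 0.106), the last 3 with *Npc2*, *Mbtps1* and *Nr1h3* without MOV replicate 2 (0.0581 to 0.216), *Cyp51*, *Nsdhl*, *Scarb1*, *Stard4* and *Mbtps1* without sham replicate 1 (0.0538 to 0.194), and *Nsdhl* and *Nr1h3* without sham replicate 2 (0.0675 and 0.104). The rises of *Lipa* and *Tmem97* in SC+ muscle and of *Lipa*, *Npc2* and, from day 3, *Cyp51* in SC- muscle kept every call. With all 20 arrays fitted together the SC+ calls of *Nr1h3* at day 3 (limma, adjusted p = 0.0946), *Msmo1* at day 5 (0.0515) and *Nsdhl* at day 7 (0.0678) ended.

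Of 7 listed genes of cholesterol efflux and storage 6 were measured, of which, at days 1, 3, 5 and 7, 0, 2, 4 and 3 rose and 1 fell on each day in SC- muscle, and 0, 3, 2 and 2 rose and 1 fell on each day in SC+ muscle. Day 1, with 1 of 6 in each arm, stands beside 14.4% of all genes in SC- and 17.7% in SC+ muscle. With 1 array left out the number that passed ran from 1 to 2, 3 to 4, 3 to 5 and 3 to 4 in SC- muscle and from 1 to 3, 2 to 5, 1 to 3 and 1 to 3 in SC+ muscle. For SC- muscle the day 1 number was 2 when either MOV replicate 2 or sham replicate 1 was dropped, and the day 5 number 3 when replicate 1 of MOV or of sham was. For SC+ muscle the number was 2 at day 1 without MOV replicate 2 and 3 without sham replicate 1, 2 at day 3 and 1 at day 5 without MOV replicate 2, and 1 at day 7 without either MOV array. *Apoe*, the apolipoprotein that carries cholesterol out of macrophages, rose by 4.45, 5.31 and 5.10 at days 3, 5 and 7 in SC- muscle and by 4.52, 3.92 and 4.08 in SC+ muscle. Its SC+ sham arrays read 10.76 and 15.04, and without sham replicate 1 the SC+ differences were 2.38, 1.78 and 1.94, all still called, while without sham replicate 2 those at days 5 and 7 were 6.07 and 6.22. The SC+ call at day 5 ended without MOV day 5 replicate 2 (limma, adjusted p = 0.107) and that at day 7 without either day 7 array (0.0577 and 0.0764). *Abca1*, the exporter of cholesterol to HDL, rose by 2.29, 2.77 and 2.803 in SC- muscle and by 2.12, 1.82 and 1.80 in SC+ muscle on those days, where without SC+ sham replicate 1 the differences were 1.34, 1.04 and 1.03 and the calls at days 5 and 7 ended (limma, adjusted p = 0.0982 and 0.109). They also ended without replicate 2 of day 3 (0.0542), day 5 (0.119) or day 7 (0.0827) and without replicate 1 of day 7 (0.0646). *Cyp27a1*, which makes an oxysterol from cholesterol, fell on every day, with log2 differences of -2.60, -3.26, -3.01 and -3.40 at days 1, 3, 5 and 7 in SC- muscle and -3.38, -2.84, -2.60 and -2.56 in SC+ muscle.

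Of 10 listed targets of SREBP1 in fatty acid synthesis, 9 were measured, of which 0, 4, 5 and 4 rose and 1, 0, 1 and 1 fell in SC- muscle and 0, 3, 5 and 4 rose and 3, 0, 0 and 0 fell in SC+ muscle at days 1, 3, 5 and 7, beside 14.4%, 21.3%, 27.9% and 28.6% of all genes in SC- muscle and 17.7%, 21.5%, 19.2% and 18.1% in SC+ muscle. With 1 array left out the number that passed ran from 0 to 1, 1 to 4, 4 to 5 and 4 to 6 in SC- muscle and from 0 to 3, 1 to 8, 3 to 7 and 2 to 6 in SC+ muscle. The day 1 number was 0 in both arms when replicate 1 of MOV or of sham was dropped, and the SC- day 3 number was 1 when MOV replicate 1 was. The SC+ number at day 3 was 1 when MOV replicate 2, or else sham replicate 1, was dropped and 8 when sham replicate 2 was. It was 3 at day 5 when MOV replicate 2 was dropped, and 2 at day 7 when either that replicate or the first sham array was. *Fads1*, *Fads2* and *Elovl5*, which desaturate and lengthen polyunsaturated fatty acids, rose at day 7 by 2.82, 2.52 and 2.17 in SC- muscle and by 1.80, 2.05 and 1.84 in SC+ muscle, and *Acly*, which makes cytosolic acetyl-CoA, rose by 2.02 in SC- muscle and 1.16 in SC+ muscle. In SC+ muscle the day 7 call of *Fads1* ended without MOV replicate 2 or sham replicate 1 (limma, adjusted p = 0.0732 and 0.0528), and that of *Acly* without these arrays or MOV replicate 1 (0.0513 to 0.121). *Fasn* did not pass on any day. Of 9 listed users of isoprenoids 7 were measured, and *Coq2*, of ubiquinone synthesis, was the 1 that passed: it fell by 1.39, 1.46 and 1.52 at days 3, 5 and 7 in SC- muscle and by 0.91 and 1.35 at days 5 and 7 in SC+ muscle. Without SC+ sham replicate 1 these were -0.58 and -1.02 and no longer called (0.304 and 0.0707), and the calls also ended without either day 5 array (0.168 and 0.141) or day 7 replicate 2 (0.0903).

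Between SC- and SC+ muscle the 8 genes differed about as often as all genes did. At an unadjusted p under 0.05, 0, 1, 0, 1 and 1 of the 8 differed in sham and at days 1, 3, 5 and 7, where 5.58%, 5.99%, 5.46%, 9.20% and 12.1% of all genes did. None of these passed after adjustment, and over all time points in 1 additive model 0 of 8 differed (8.71% of all genes). In that model the log2 differences lay between -0.18 (*Lss*) and 0.18 (*Fdft1*), with 95% intervals of -0.40 to 0.05 and -0.10 to 0.45 for these genes. In sham muscle the intervals of the 8 genes ran from -0.96 (*Sqle*) at the low end to 1.01 (*Fdft1*) at the high end.

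None of the 3 differences kept its call with each array left out in turn. At day 1 *Hmgcs1* was at 9.89 and 9.67 in SC- muscle, against 10.97 and 9.98 in SC+ muscle, a log2 difference of -0.70 (SE 0.29; limma, unadjusted p = 0.0280, adjusted p = 0.797). Without SC+ MOV day 1 replicate 1 it was -0.20 (limma, unadjusted p = 0.516), without SC+ MOV day 1 replicate 2 -1.19 (0.00111), and without SC- MOV day 1 replicate 2 -0.59 (0.124). On the same arrays, 6 of 7 neutrophil markers were lower and 7 of 9 fibroblast markers higher in SC- muscle, beside 5.99% of all genes. The mean fibroblast marker level was 10.72 and 13.76 on the SC- arrays, against 10.61 and 10.40 on the SC+ arrays. The part of those cells was not tested. At day 5 *Dhcr7* was at 6.75 and 7.02 in SC- muscle, against 6.05 and 6.51 in SC+ muscle, a log2 difference of 0.61 (SE 0.26; limma, unadjusted p = 0.0340, adjusted p = 0.491), which was 0.38 (0.252) without SC+ MOV day 5 replicate 1 and 0.47 (0.168) without SC- MOV day 5 replicate 2. On these day 5 arrays 7 of 14 fibre markers and 5 of 8 satellite cell markers were lower, and 4 of 13 macrophage and 4 of 7 endothelial markers higher, in SC- muscle. Of all genes 9.20% differed there, and the part of these cells was not tested. At day 7 *Sqle* was at 6.96 and 6.54 in SC- muscle, against 5.55 and 6.30 in SC+ muscle, a log2 difference of 0.82 (SE 0.34; limma, unadjusted p = 0.0275, adjusted p = 0.334), which was 0.44 (0.287) without SC+ MOV day 7 replicate 1 and 0.61 (0.166) without SC- MOV day 7 replicate 1. At day 7 the mean log2 level of the 9 proliferation markers was 9.12 to 9.29 in SC- muscle, against 7.81 to 8.57 in SC+ muscle, that of the 7 neutrophil markers 8.07 to 8.78 against 6.76 to 7.69, and that of the 14 fibre markers 18.02 to 18.55 against 18.83 to 18.94.

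**Figure D4:**
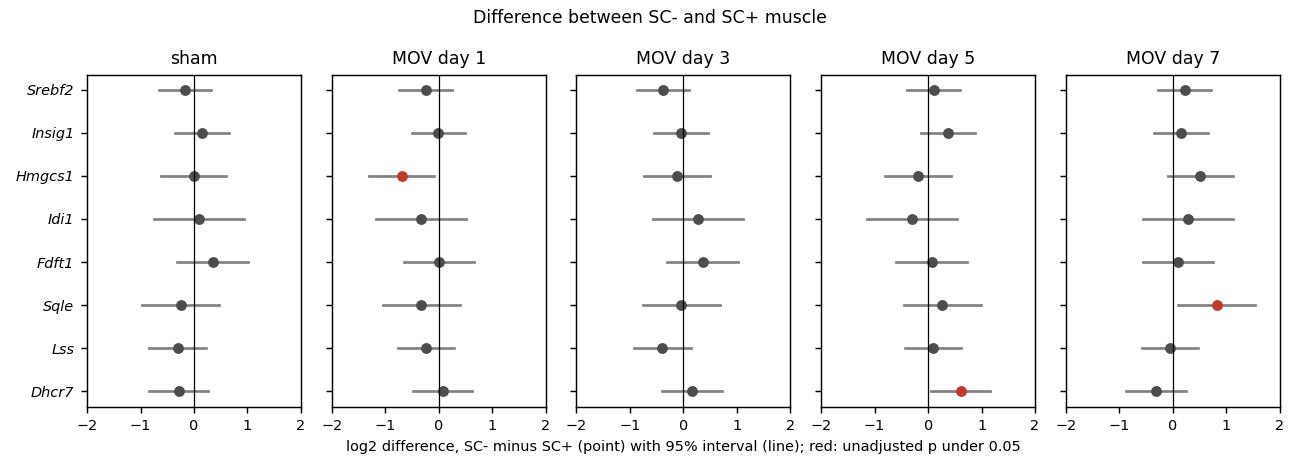
Log2 difference between SC- and SC+ muscle (point, SC- minus SC+) of each of the 8 genes with its 95% interval (line), in sham and at days 1, 3, 5 and 7 of MOV; red points have an unadjusted p under 0.05. The red points are *Hmgcs1* at day 1 (-0.70), *Dhcr7* at day 5 (0.61) and *Sqle* at day 7 (0.82), and the other intervals span 0.

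The difference between the responses of the arms, each against its own sham, was tested as an interaction. Of the 8 genes 0, 0, 1 and 1 passed at days 1, 3, 5 and 7 at an unadjusted p under 0.05, where 4.93%, 4.20%, 7.80% and 9.28% of all genes did. *Dhcr7* had a response difference of 0.90 at day 5 (SE 0.37; limma, unadjusted p = 0.0276, adjusted p = 0.602), with a log2 difference from sham of 0.47 in SC- muscle and -0.42 in SC+ muscle, and *Sqle* one of 1.07 at day 7 (SE 0.48; unadjusted p = 0.0411, adjusted p = 0.512). With 1 of the 8 arrays left out the first passed in 4 of 8 fits (unadjusted p up to 0.124, at 0.67 without SC+ MOV day 5 replicate 1) and the second in 2 of 8 (up to 0.204, at 0.69 without SC+ MOV day 7 replicate 1). For *Srebf2* the response differences were -0.07, -0.22, 0.27 and 0.39 at days 1, 3, 5 and 7 (SE 0.33), with a 95% interval at day 7 of -0.30 to 1.09.

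SC- and SC+ muscle were compared for the further lists too. At an unadjusted p under 0.05 (limma), 0 of the 6 mevalonate arm genes differed at any time point. In sham and at days 1, 3, 5 and 7, 1, 0, 0, 0 and 1 of the 7 sterol arm genes differed, and 0, 0, 0, 0 and 2 of the 7 uptake genes. Of the 5 regulators 2, 0, 1, 1 and 1 differed, beside 5.58%, 5.99%, 5.46%, 9.20% and 12.1% of all genes. *Ebp* at day 7 had a log2 difference of 1.01, or 0.57 without SC- MOV day 7 replicate 1. At day 7 the log2 level of *Tmem97* was 8.86 and 8.68 in SC- muscle, against 7.52 and 7.46 in SC+ muscle, a log2 difference of 1.28 (limma, unadjusted p = 0.000209, adjusted p = 0.0551) that passed in 4 of 4 fits with 1 array left out. *Insig2* stood at 6.504 and 6.12 in SC- muscle, against 7.42 and 6.97 in SC+ muscle at day 7, and at 8.001 and 7.40 against 7.36 and 6.58 in sham, so the sign of the difference turned between sham (0.73, limma, unadjusted p = 0.0304) and day 7 (-0.88, unadjusted p = 0.0111). Each of these 2 values passed in 2 of 4 fits, the first being 0.43 without SC- sham replicate 1 and 0.34 without SC+ sham replicate 2, and the second -0.69 without SC- MOV day 7 replicate 2 and -0.66 without SC+ MOV day 7 replicate 1. The response difference of *Insig2* at day 7, -1.62, passed in 8 of 8 fits (unadjusted p between 0.000371 and 0.0157), at an adjusted p of 0.284. *Mbtps1* was higher in SC- muscle over all time points by 0.26, and *Tmem97* by 0.41 (limma, unadjusted p = 0.0208 and 0.0121, adjusted p = 0.466 and 0.423). Over all time points 1 of 5 regulators and 1 of 7 uptake genes thus differed, beside 8.71% of all genes. Of the 6 mevalonate arm and 7 sterol arm genes 0 did.

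Of the 9 measured fatty acid synthesis targets of SREBP1, 0, 1, 1, 2 and 3 differed between SC- and SC+ muscle in sham and at days 1, 3, 5 and 7 at an unadjusted p under 0.05 (limma), beside 5.58%, 5.99%, 5.46%, 9.20% and 12.1% of all genes. *Acly* at day 1 (-0.78) and *Acss2*, an acetyl-CoA synthetase gene, at day 5 (-0.75) were lower in SC- muscle, and the others higher. Without SC+ MOV day 1 replicate 1 the value of *Acly* was -0.41. That of *Acss2* was -0.30 without SC+ MOV day 5 replicate 1 and -1.21 without replicate 2. *Fads2* at day 3 had 0.66, which was 0.30 without SC- MOV day 3 replicate 1 and 1.02 without replicate 2. Over all time points 4 of the 9 were higher in SC- muscle, beside 8.71% of all genes. These were *Fads1* by 0.65, *Fads2* by 0.40, *Elovl5* by 0.39 and *Elovl6*, an elongase gene, by 0.32 (limma, unadjusted p = 0.00215, 0.0105, 0.0150 and 0.0452, adjusted p between 0.267 and 0.565). With 1 array left out 3 or 4 passed, and *Elovl6* was the gene lost, at 0.23 without SC- MOV day 7 replicate 1 (unadjusted p = 0.114). At day 7 *Acly* was at 10.29 and 9.88 in SC- muscle, against 9.01 and 9.24 in SC+ muscle, a log2 difference of 0.96 (limma, unadjusted p = 0.00308, adjusted p = 0.149). *Fads1* and *Fads2* had log2 differences of 1.23 and 0.78 at day 7 (unadjusted p = 0.00862 and 0.0239, adjusted p = 0.216 and 0.313). That of *Fads1* no longer passed without SC- MOV day 7 replicate 2 (0.0503) or SC+ MOV day 7 replicate 1 (0.0848), nor that of *Fads2* without either SC- array (0.0733 and 0.0630) or SC+ MOV day 7 replicate 1 (0.115). Of the 6 efflux and storage genes 0, 1, 0, 1 and 1 differed in sham and at days 1, 3, 5 and 7, and of the 7 isoprenoid users 0, 0, 0, 1 and 0.

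Across the 20 arrays the 8 genes did not vary as 1 set. Of 28 pairs, Pearson's r ran from -0.84 (*Fdft1* and *Srebf2*) to 0.77 (*Sqle* and *Srebf2*) with a median of 0.09, was above 0.5 in 5 pairs and below 0 in 12. The 5 pairs were *Srebf2* with *Sqle*, *Hmgcs1* (0.67) and *Insig1* (0.61), *Hmgcs1* with *Sqle* (0.71), and *Sqle* with *Insig1* (0.56). *Fdft1* had r of -0.59 with *Hmgcs1*, -0.75 with *Sqle* and -0.56 with *Insig1*, and *Lss* and *Dhcr7* had no r beyond 0.25 in size with any other of the 8. The arrays share 10 groups and a common time course, so r is given as a description. Against the mean of the standardised levels of the 8 genes, r was highest outside them for *Zgrf1* (0.925), *Zmpste24* (0.87), *Adap2* (0.86), *Itgav* (0.86) and *Ncoa7* (0.86), against a median of -0.12 over all other genes. The 8 genes are themselves part of that mean. Their own r with it ran from -0.54 (*Fdft1*) to 0.75 (*Srebf2*), with 0.32 for *Lss*, 0.38 for *Dhcr7* and 0.44 for *Insig1*.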

How the data were processed

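Plantaris RNA was pooled over several mice per array, and the authors deposited log2 values made by robust multi-array averaging (background correction, quantile normalization, log2 transformation). The array model behind the probe sets is not settled: the methods name one array and the probe-set names follow another style. Of 28846 rows, 19572 carried 1 gene symbol and 9274 were not used. The probe set with the highest mean stood for each of 19505 genes, a choice that concerned 55 genes and none of the 8.

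Moderated two-sided tests used limma 3.58.1 in R 4.3.3, with statmod 1.5.0. The SC+ response was fitted on the 10 SC+ arrays, and the SC- response, SC- against SC+ and the response difference on all 20. Responses to MOV passed at a Benjamini-Hochberg adjusted p under 0.05 over all genes, and comparisons of SC- with SC+ at an unadjusted p under 0.05, with the adjusted p beside it. Exact tests on 2 arrays a group could not reach that threshold, so none was used. With 2 pools a group, the number of arrays limits the precision.

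The members and lists were chosen with earlier results of these data known. Named genes were the 8, every measured gene of the 4 pathway lists, up to 4 passing genes with the largest differences in each further list, and the 5 genes most like the mean profile. *Fasn*, *Acss2*, *Abcg1*, *Nceh1* and *Elovl6* were named after their values were seen. Alternatives changed the genes tested, the normalization, the moderation, the arrays fitted, the threshold, the probe set, the replicate block and each array in turn. The fit was tested on simulated data. Same-numbered arrays were not taken as pairs. Some listed genes are not reported here.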

Additional observations from a re-analysis of the deposited data

Results flagged for a closer look

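In 14 cases among the 8 genes and the measured genes of the 7 lists, 55 genes in all, the response to MOV differed between SC- and SC+ muscle by the interaction test (limma, unadjusted p under 0.05), and none passed after adjustment. By day these were 1, 2, 4 and 7 genes at days 1, 3, 5 and 7, or 1.82%, 3.64%, 7.27% and 12.7%, beside 4.93%, 4.20%, 7.80% and 9.28% of all genes. The values are response differences on the log2 scale, SC- minus SC+, and all share the sham arrays of their arm.

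*Insig2* at day 7 had -1.62 (SE 0.44; limma, unadjusted p = 0.00178, adjusted p = 0.284) and passed in 8 of 8 fits with 1 array left out. *Dhcr7* at day 5 had 0.90 (SE 0.37; limma, unadjusted p = 0.0276, adjusted p = 0.602) and *Tmem97* at day 7 had 0.93 (SE 0.39; limma, unadjusted p = 0.0294, adjusted p = 0.479), each passing in 4 of 8 such fits. *Scap* at day 5 had 0.99 (SE 0.43; limma, unadjusted p = 0.0331, adjusted p = 0.602), *Ebp* at day 7 had 1.21 (SE 0.54; limma, unadjusted p = 0.0368, adjusted p = 0.499) and *Rnf139* at day 7 had -0.69 (SE 0.31; limma, unadjusted p = 0.0408, adjusted p = 0.512), each passing in 3 of 8. *Sqle* at day 7 had 1.07 (SE 0.48; limma, unadjusted p = 0.0411, adjusted p = 0.512) and *Stard4* at day 3 had -0.66 (SE 0.31; limma, unadjusted p = 0.0490, adjusted p = 0.9997), each passing in 2 of 8. For *Ebp* the value was 0.76 without SC- MOV day 7 replicate 1 and 0.80 without SC+ sham replicate 2.

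In the efflux, fatty acid and isoprenoid lists, *Acly* had -0.88 at day 1 (limma, unadjusted p = 0.0397; -0.50 without SC+ MOV day 1 replicate 1) and 0.86 at day 7 (unadjusted p = 0.0435), *Coq2* -0.88 at day 3 (unadjusted p = 0.0322; -0.55 without SC+ sham replicate 2), *Abcg1* 1.05 at day 5 (unadjusted p = 0.0378; 0.68 without SC- MOV day 5 replicate 1), *Acss2* -0.97 at day 5 (unadjusted p = 0.0441; -0.51 without SC+ MOV day 5 replicate 1) and *Nceh1* 1.37 at day 7 (unadjusted p = 0.0372; 0.67 without SC- sham replicate 1 and 2.08 without SC- sham replicate 2), with adjusted p between 0.5004 and 0.9997 and 2 to 4 of 8 fits passing.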

How the results depend on the processing

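Over the settings other than leaving out an array, 1301 of 1323 values of the 8 genes kept their side of the threshold and, where called, their direction, 21 lost a call and 1 gained one. With 1 array left out, 878 of 928 did, 40 lost a call and 10 gained one. No called value turned its sign, while 17 and 121 values that passed in neither fit did. Of the 8 genes, 1 in place of 3 passed at day 1 in SC+ muscle with all rows tested, and 1 in place of 2 at day 1 in SC- muscle fitted on the 10 SC- arrays. For SC- against SC+, 0 in place of 1 passed at days 1, 5 and 7 with adjusted p, and for the response difference 0 at days 5 and 7. At day 7 both counts were 0 with genes of mean 6 or more, where *Sqle* was not tested, and the response difference was 0 with all rows or after a further quantile normalization. Apart from the threshold and the rows tested, the cause was not tested.

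With 1 array left out, the number that passed ran from 0 to 1, 1 to 4, 3 to 3 and 4 to 4 at days 1, 3, 5 and 7 in SC- muscle, and from 0 to 2, 2 to 3, 2 to 3 and 2 to 2 in SC+ muscle. It was 0 in each comparison of neighbouring days. For SC- against SC+ it ran from 0 to 1 in sham, 0 to 2 at day 1, 0 to 0 at day 3, 0 to 1 at day 5 and 0 to 2 at day 7, for the response difference from 0 to 1 at days 1, 5 and 7 and 0 to 0 at day 3, and over all time points from 0 to 1.

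Same-numbered arrays did not deviate together: over 45 pairs of groups the correlation ran from -0.155 to 0.216, 12 pairs were over 0.1, and 5 of 10 groups lay closer to their own number. With the replicate number as a block, 2 of the 8 genes in place of 3 passed at day 3 in SC- muscle, and the other counts of the 8 genes were those without it.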
